A study of Arabidopsis thaliana with 12 samples.

Results

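Polysomal mRNA of *eif3k* mutant seedlings was set against polysomal mRNA of wild-type (WT) seedlings. The comparison took the 6 polysome arrays of a series of 12, 3 from *eif3k* and 3 from WT, and was chosen by the genotype and fraction in the sample labels. Both genotypes are *Arabidopsis thaliana* of the Columbia ecotype, grown for 11 days, and only the aerial part was used. The *eif3k* plants carry a T-DNA insertion of the GABI-Kat collection in intron 6, the last, of the gene for eIF3k (AT4G33250). They are described as making a transcript shortened at its 3′ end, none of full length, and as showing no obvious phenotype. They represent a single insertion line, so the insertion and any other difference of that line from WT cannot be told apart. Lysates were layered on sucrose gradients. The 6 fractions from the bottom, which hold mRNAs with several ribosomes, were pooled as the polysomal sample (PL), and the 6 from the top as the non-polysomal sample (NP). Every sample was read on 1 Affymetrix ATH1 array. The labels and the methods differ on the light regime, and no regime is assumed here.

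eIF3 is the largest of the eukaryotic initiation factors. It binds the small ribosomal subunit, helps to recruit it to the mRNA and takes part in scanning and in reinitiation after short upstream open reading frames. A conserved core carries out the basic function, while eIF3k belongs to the non-core subunits, which some eukaryotes lack. The signal of an mRNA in the polysomal fraction depends on both its abundance and the share of it that carries ribosomes, and these cannot be told apart in PL alone. In an organ such as the shoot, fewer cells of a type and less RNA per cell cannot be told apart either. NP differences from the same lysates are given beside several of the genes.

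Values are log2 signals, and a difference of 1 is a 2-fold change. The lowest signal was 2.33, a floor on which 4912 of the 22746 probe sets tested (21.6%) lay within 0.1 on all 6 arrays, and the highest was 15.03. Replicate 3 of both genotypes was hybridized on another day than replicates 1 and 2, and the PL array of WT replicate 3 stood apart. It correlated with the others at r = 0.907 to 0.918 over all probe sets (genes are not independent replicates). The others correlated among themselves at 0.975 to 0.995. Its SD over probe sets was 1.94, against 2.23 to 2.29 elsewhere. The 3′ probe set of GAPDH exceeded the 5′ one by 8.98 on it, against 5.56 to 6.65 on the *eif3k* arrays and 5.67 and 5.95 on the other WT arrays. For ubiquitin the excess was 3.54 on it, against 1.70 to 2.66 elsewhere. For actin it was 6.78, within the 6.76 to 7.44 of the other arrays. Differences and list medians are therefore given with all replicates and then without replicate 3 of both genotypes. All 3 leaf markers had log2 signals of at least 6 on all 6 arrays, and 7 of 14 root markers lay on the floor throughout. The root list included 2 genes with at least 6 on all arrays, *PYK10* and *SCR*. The summed linear signal of that list was 946 to 1474 in *eif3k* and 320 to 755 in WT.

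No probe set was called between *eif3k* and WT in PL (0%), with a call set at an adjusted p under 0.05 and a log2 difference of at least 1 in limma. At an unadjusted p under 0.05, 328 were higher in *eif3k* (1.44%) and 108 lower (0.475%). By size alone, 363 were higher by at least 1 (1.6%) and 78 lower (0.343%). Without replicate 3 there was again no call (0%), with 646 higher (2.84%) and 419 lower (1.84%) at an unadjusted p under 0.05. Only 30 were then higher by at least 1 (0.132%) and 25 lower (0.11%). For the genes named below the adjusted p with all replicates was 0.817 unless another value is given. The p-values measure only the spread between these samples, and the study describes its WT samples as biological replicates.

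The pair of arrays with replicate number 3 set most of the large differences. In replicates 1, 2 and 3, *eif3k* and WT differed by at least 1 in 76, 145 and 5423 probe sets. For comparison, the *eif3k* arrays of replicates 1 and 2 differed in 164 and the WT arrays in 96. Among the 363 that were higher by at least 1, the third pair had the most extreme difference in 354 (97.5%), and 22 still reached 1 without replicate 3. Among the 78 that were lower, these counts were 73 (93.6%) and 20. The shift of the third pair depended on brightness. Probe sets with a mean log2 signal of 8 to 10 had median differences of 0.01, 0.04 and 0.81 in the 3 pairs. Those with a mean of 4 to 6 had 0.00, 0.06 and 0.38. Those with a mean of 2 to 4, which include the probe sets on the floor, had 0.00 in each. Those with means of 10 to 12 and 12 to 16 had 0.65 and 0.29 in the third pair, so the shift did not rise throughout. For the 5041 probe sets with a mean of at least 6 in the brighter genotype, the median difference was 0.29 with all replicates and 0.04 without replicate 3. It was 0.06 after quantile normalization of the 6 arrays. Centring each array on its brighter probe sets moved the median of all genes by -0.25, and list medians given below are lower by about that amount under it.

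**Figure D1:**
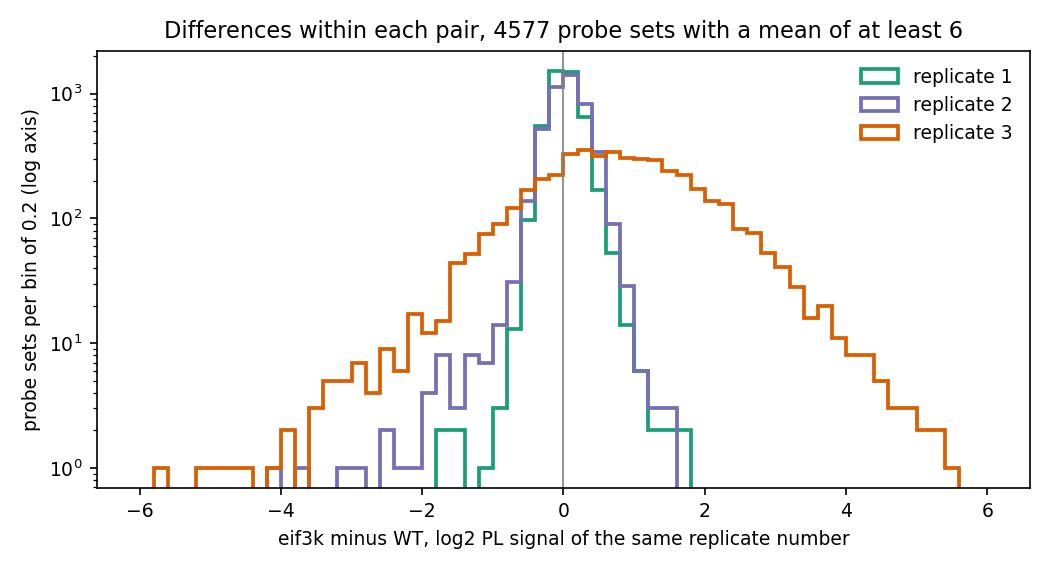
Number of probe sets (log axis) by the difference in log2 PL signal between *eif3k* and WT of the same replicate number, for the 4577 probe sets with a mean log2 signal of at least 6 over the 6 arrays; each line is 1 pair. The lines of replicates 1 and 2 are narrow and centred near 0, whereas that of replicate 3 is wide and lies mostly to the right.

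The mRNA of the disrupted gene, *eIF3k*, still gave a polysomal signal. Its log2 PL signals were 7.17, 7.06 and 7.63 in *eif3k* replicates 1, 2 and 3, against 8.61, 8.89 and 7.28 in WT. All *eif3k* arrays lay below WT replicates 1 and 2, but *eif3k* replicate 3 lay above WT replicate 3, so the groups overlapped. The means were 7.29 ± 0.30 in *eif3k* and 8.26 ± 0.86 in WT (SD, n = 3 each), a difference of -0.97 (SE 0.50). Without replicate 3 the difference was -1.64 (SE 0.14), which is 3.11-fold lower and did not pass (adjusted p = 0.513 in limma). Here a choice of filter mattered. When the dim probe sets were left out, the same 4 arrays gave an adjusted p of 0.0308 in limma. That filter left 4894 probe sets, and limma also drew more on their shared spread (prior degrees of freedom 5.67, against 0.366 without the filter). The NP arrays read 7.30, 7.93 and 8.05 for this gene in *eif3k* and 9.26, 9.45 and 9.01 in WT, without overlap. Where the probes lie relative to the insertion is not known, so the signal does not measure intact mRNA.

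*QQS* (AT3G30720) had the highest PL difference of all probe sets without replicate 3. It is an orphan gene of *Arabidopsis* known to affect starch content and the partitioning of carbon and nitrogen. Its log2 PL signals were 6.60, 6.41 and 6.86 in *eif3k* and 3.72, 3.28 and 5.39 in WT. Every *eif3k* array lay above every WT array, and WT replicate 3 was the highest of the WT arrays. The means were 6.62 ± 0.23 and 4.13 ± 1.11 (SD, n = 3 each), a difference of 2.49 (SE 0.62) or 5.63-fold. Without replicate 3 the difference was 3.00 (SE 0.22), which is 8.03-fold (adjusted p = 0.443 in limma). In the non-polysomal fraction *QQS* was higher in *eif3k* by 4.12, more than in PL. The PL difference minus the NP difference was -1.62 (SE 1.05, adjusted p = 0.823 in limma), so a different size in the 2 fractions was not shown.

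**Figure D2:**
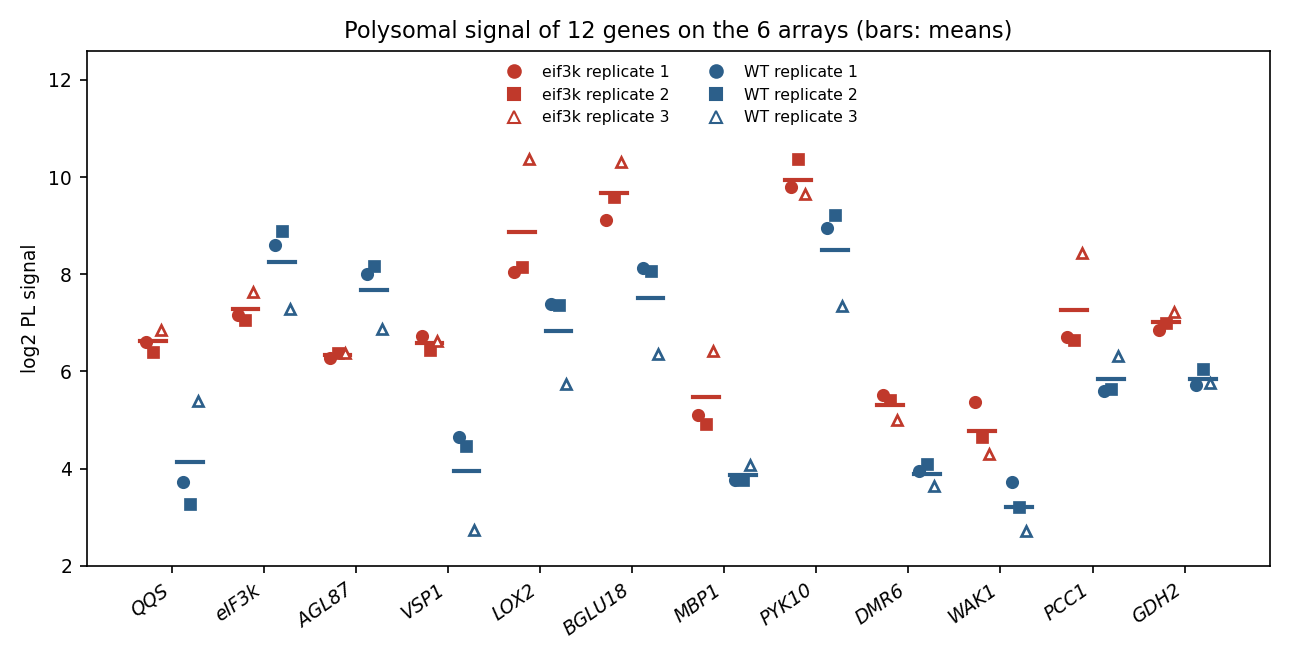
Log2 PL signal of 12 genes on each of the 6 arrays, with *eif3k* (red) left of WT (blue) for each gene, bars for the means of 3 and open triangles for replicate 3. For 11 of the 12 genes the 3 *eif3k* and 3 WT arrays do not overlap, the exception being *eIF3k*, and the WT triangle often lies away from the other WT points.

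Of the 10 bright genes with the highest differences without overlap, *VSP1* and *LOX2* belong to the list of jasmonate genes. Jasmonate is a hormone of wounding and of defence against chewing insects. *VSP1* encodes a vegetative storage protein induced by jasmonate. Its PL signals were 6.72, 6.44 and 6.62 in *eif3k* and 4.66, 4.47 and 2.73 in WT, on a probe set that may hybridize to more than 1 transcript. The *eif3k* arrays lay close together and above all WT arrays. The difference was 2.64 (SE 0.59), or 6.23-fold, and 2.02 (SE 0.16) without replicate 3 (adjusted p = 0.47 in limma). *LOX2*, the plastid lipoxygenase of jasmonate synthesis, had 8.05, 8.16 and 10.37 in *eif3k* and 7.38, 7.36 and 5.74 in WT. Its difference of 2.03 (SE 0.88) came mostly from replicate 3, where both arrays deviated in opposite directions, and was 0.73 without it. The allene oxide cyclase gene *AOC1*, of the same pathway, had 8.96, 8.76 and 10.23 in *eif3k* and 8.54, 8.42 and 6.62 in WT, and its difference was 1.46, or 0.38 without replicate 3. In NP the differences of *VSP1*, *LOX2* and *AOC1* were 1.09, 1.08 and 1.16, and 0.72, 0.66 and 0.72 without replicate 3. The *AOC1* probe set, too, may hybridize to more than 1 transcript.

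Of 33 jasmonate genes, 24 were higher and 7 lower in *eif3k*, and without replicate 3 these were 24 and 4. Over all probe sets 10166 were higher and 8762 lower, and 8481 and 7817 without replicate 3. None was called. The arrays did not overlap, with *eif3k* higher, in 8 of the 33 (24.2%), against 8.95% of the brighter probe sets and 4.56% of all. In the list 9 genes are that bright. The median difference of the list was 0.23, or 0.06 without replicate 3 and 0.14 after quantile normalization, and it turned to -0.02 when arrays were centred. Over all probe sets the median was 0.00 with and without replicate 3. Beside *VSP1* and *LOX2*, the defensin gene *PDF1.2* had 5.50, 5.28 and 6.68 in *eif3k* and 4.52, 4.67 and 3.33 in WT, and the repressor gene *JAZ6* had 6.69, 6.76 and 6.65 against 6.41, 6.23 and 4.07. Their differences of 1.65 and 1.13 were 0.80 and 0.41 without replicate 3. These *PDF1.2* and *JAZ6* values were chosen after they were seen. By contrast *MYC2*, the main transcription factor of the response, had a difference of 0.02, or 0.01 without replicate 3, and *LOX3*, *LOX4*, *JAZ4* and *JAZ7* lay on the floor on all *eif3k* arrays.

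The ER body is an endoplasmic reticulum compartment of the Brassicales that stores β-glucosidases, and myrosinases are the β-glucosidases that release toxic products from glucosinolates. *BGLU18*, the ER-body enzyme of rosette leaves, had PL signals of 9.11, 9.59 and 10.32 in *eif3k* and 8.13, 8.07 and 6.35 in WT. Its difference was 2.16 (SE 0.65), and 1.25 (SE 0.22) without replicate 3 (adjusted p = 0.822 in limma). *PYK10*, the main ER-body enzyme of roots and seedlings, had 9.79, 10.37 and 9.65 in *eif3k* and 8.95, 9.23 and 7.34 in WT. The difference of *PYK10* was 1.43 (SE 0.60), or 0.99 without replicate 3. In NP *BGLU18* differed by 1.35 and *PYK10* by 0.19, and without replicate 3 by 0.93 and 0.66. *PYK10* is also a root marker, and with it moves the summed root marker signal given above; the part of root tissue in it was not tested. The myrosinase-binding protein gene *MBP1* had 5.11, 4.91 and 6.43 in *eif3k* and 3.77, 3.77 and 4.08 in WT. For all 3 genes every *eif3k* array lay above every WT array. The *MBP1* difference was 1.61 (SE 0.46), or 1.24 (SE 0.09) without replicate 3 (adjusted p = 0.448 in limma), and its NP difference was 1.62, or 1.10 without replicate 3. The *MBP1* probe set may hybridize to more than 1 transcript.

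The list of 53 glucosinolate and myrosinase genes had 44 members higher and 5 lower in *eif3k*, and 40 and 7 without replicate 3, with none called. In 13 of them (24.5%) the arrays did not overlap with *eif3k* higher, against 8.95% of the brighter probe sets and 4.56% of all. In 0 they did not overlap with *eif3k* lower, against 1.69% and 1.57%. Here 27 of 53 belong to the brighter probe sets. The list median was 0.40, against 0.29 for the brighter probe sets, and 0.18 against 0.04 without replicate 3. It kept its sign after quantile normalization (0.25) and centring (0.15). By pair the medians were 0.17, 0.23 and 0.89. The array medians of the list were 6.07, 6.52 and 6.01 in *eif3k* and 5.90, 6.29 and 4.77 in WT, so WT replicate 3 was the low array. Its effect was plainest in *TGG2*, a leaf myrosinase, with 12.33, 12.41 and 11.67 in *eif3k* and 12.11, 12.44 and 7.39 in WT. *TGG2* was chosen after its values were seen. The *IPMI2* and *SOT18* genes of glucosinolate synthesis showed the same, with differences of 1.43 and 1.29 that were 0.34 and 0.30 without replicate 3. In NP the median of the list without replicate 3 was 0.15.

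Other bright genes were higher without overlap. *MLP328*, of the major latex protein family, had 7.67, 8.87 and 8.88 in *eif3k* and 6.43, 7.40 and 4.32 in WT. AT4G11310, annotated as cysteine protease 1, had 5.99, 6.88 and 5.85 in *eif3k* and 4.68, 4.78 and 3.05 in WT. Their differences of 2.42 and 2.07 were 1.35 and 1.71 without replicate 3. *DR4*, annotated as drought-repressed, had 7.12, 8.18 and 8.45 in *eif3k* and 6.40, 6.85 and 4.57 in WT, a difference of 1.98, or 1.02 without replicate 3. In NP the differences of *MLP328*, AT4G11310 and *DR4* were 1.04, 0.13 and 0.95, and 1.12, 0.24 and 0.70 without replicate 3. The remaining 3 of the 10 highest rested on WT replicate 3. AT1G19660, annotated as a nuclease in basal defence, had 9.43, 10.16 and 10.15 in *eif3k* against 9.27, 9.32 and 4.61 in WT. Its difference of 2.18 was 0.50 without replicate 3. The probe sets of AT4G11310 and AT1G19660 may hybridize to more than 1 transcript. For *TRP1*, of tryptophan synthesis, and AT1G09130 the differences of 1.73 and 1.64 were 0.62 and 0.21.

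Among genes of defence against pathogens, *DMR6* had differences of similar size in the 3 pairs. This gene, which encodes an oxygenase that hydroxylates salicylate, had PL signals of 5.51, 5.42 and 5.01 in *eif3k* and 3.96, 4.09 and 3.65 in WT. It was higher by 1.55, 1.33 and 1.36 in the 3 pairs, and the difference was 1.41 (SE 0.19) with all replicates and 1.44 (SE 0.07) without replicate 3 (adjusted p = 0.391 in limma). In NP the *DMR6* difference was 0.52, and 1.09 without replicate 3. *PCC1*, controlled by pathogens and by the clock, had 6.70, 6.64 and 8.43 in *eif3k* and 5.60, 5.63 and 6.32 in WT. The lowest *eif3k* array of *PCC1* lay above the highest WT array, and its difference was 1.41, and 1.05 without replicate 3 (SE 0.03, adjusted p = 0.23 in limma), with 0.74 and 1.00 in NP. The aspartic protease gene AT5G10760 had 3.91, 3.85 and 2.47 in *eif3k* and 2.47 on all WT arrays, so *eif3k* replicate 3 did not share the difference of 1.41 seen in replicates 1 and 2 (adjusted p = 0.157 without replicate 3 in limma). *PR5*, a pathogenesis-related gene, had 6.39, 5.69 and 6.53 in *eif3k* and 4.36, 5.63 and 4.09 in WT, and its *eif3k* and WT arrays of replicate 2 were nearly equal. Its difference was 1.51, or 1.04 without replicate 3, and -0.01 and -0.03 in NP.

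Of 30 salicylate defence genes, 16 were higher and 9 lower, and 20 and 3 without replicate 3, where 4 reached a difference of 1. The list median was 0.01, and 0.03 without replicate 3, since most members were dim; only 1 of the 30 was among the brighter probe sets. The 4 were *WAK1*, *PR5*, *DMR6* and *BGL2*. The wall-associated kinase gene *WAK1* had 5.37, 4.66 and 4.31 in *eif3k* and 3.72, 3.22 and 2.72 in WT. *BGL2*, the pathogenesis-related glucanase, had 4.75, 4.30 and 3.09 in *eif3k* and 3.09, 3.08 and 4.38 in WT, and so was reversed in replicate 3. *PR1* likewise had 4.26, 3.76 and 3.37 in *eif3k* and 3.27, 3.39 and 4.78 in WT. For *ALD1*, *PBS3* and *SARD1*, further genes of salicylate defence, the signals lay on the floor on all 6 arrays, so no difference could be seen. *WAK1*, *BGL2*, *PR1*, *ALD1*, *PBS3* and *SARD1* were chosen after their values were seen.

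The *eif3k* and WT arrays did not overlap in 1394 probe sets (6.13%), of which 1038 were higher and 356 lower in *eif3k*. Of all probe sets, the difference was at least 1 with *eif3k* higher in each of the 3 pairs for 10 probe sets. They were *QQS*, *VSP1*, *MLP328*, AT4G11310, *DMR6*, *MBP1*, *PCC1*, *WAK1*, *PNP-A* and AT4G12490. *PNP-A*, a secreted natriuretic-like peptide gene, had 5.04, 4.17 and 4.32 in *eif3k* and 2.85, 2.93 and 2.83 in WT. AT4G12490 lies next to *EARLI1* and *AZI1*, which encode related proteins of the lipid transfer type. It had 7.92, 7.39 and 5.58 in *eif3k* and 5.29, 6.18 and 2.74 in WT, with an overlap between *eif3k* replicate 3 and WT replicate 2. For *AZI1* the signals were 8.69, 8.45 and 8.85 in *eif3k* and 7.06, 7.78 and 6.60 in WT, with no overlap. For *EARLI1* they were 8.37, 7.71 and 5.53 against 6.61, 6.74 and 5.11, with replicate 3 low in both genotypes. With *eif3k* lower, the difference reached 1 in each pair for 1 probe set, the plastid *accD*, which encodes a subunit of acetyl-CoA carboxylase, by -1.18, -1.62 and -1.80. Its signals were 4.62, 2.33 and 2.43 in *eif3k* and 5.80, 3.95 and 4.23 in WT. The groups overlapped, since *eif3k* replicate 1 lay above WT replicates 2 and 3, and *eif3k* replicate 2 lay on the floor. *PNP-A*, AT4G12490, *AZI1*, *EARLI1* and *accD* were chosen after their values were seen.

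Of the 30 probe sets that were higher by at least 1 without replicate 3, all of nuclear genes, 24 were also higher in the third pair, 19 of these by at least 1, and 5 were lower there. Their median difference was 1.25 in PL and 0.69 in NP, but they were picked by PL, a choice that alone favours larger PL differences. In NP 8 of them reached 1 and 16 reached 0.5, while 14 lay within 0.5 of 0. *DFL2*, a gene of the GH3 family that acts in light-dependent growth, was of the second kind. It had 6.41, 6.16 and 4.83 in *eif3k* and 4.79, 4.62 and 4.38 in WT, a difference of 1.58 (SE 0.14) without replicate 3 (adjusted p = 0.522 in limma), with -0.33 in NP. *QQS*, AT4G12490 and *EARLI1* were of the first kind. Whether the PL and NP differences differ was tested for all probe sets, and none was called (0%); 612 had an unadjusted p under 0.05 (2.69%), and the smallest adjusted p was 0.608 in limma.

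**Figure D3:**
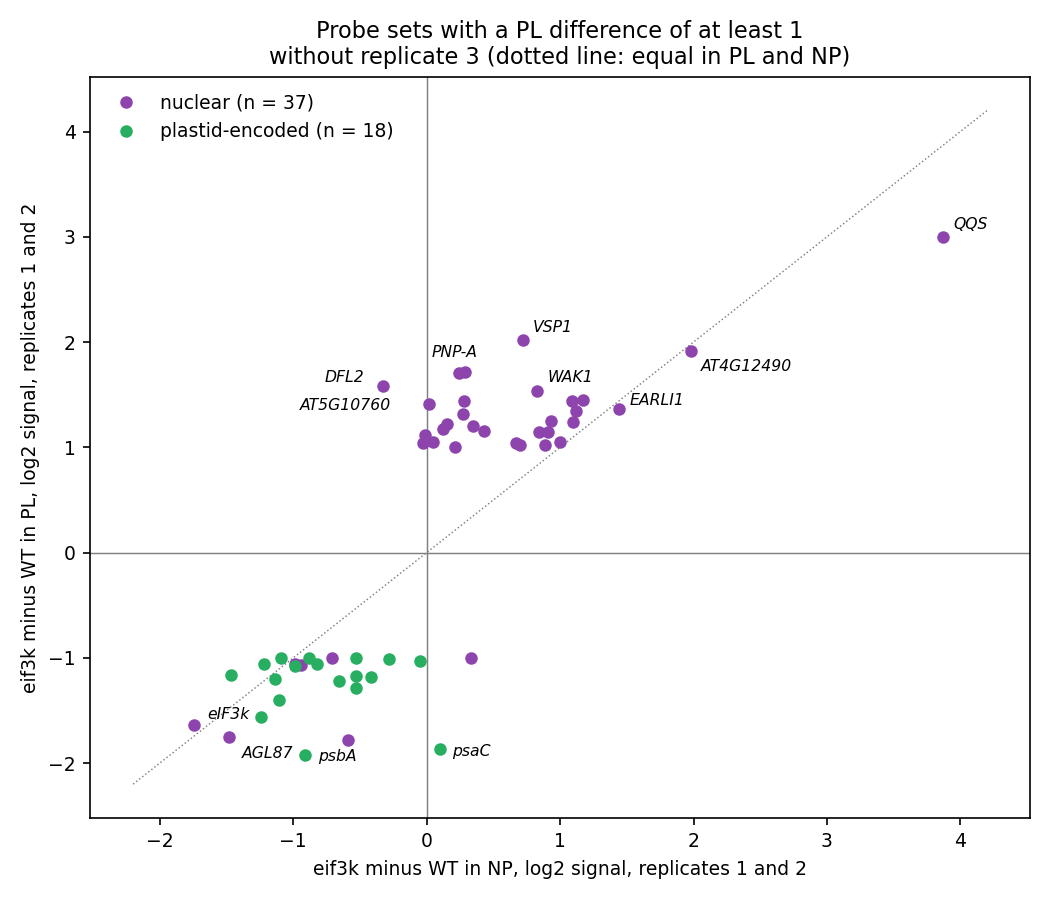
Difference of *eif3k* minus WT in PL (vertical) and in NP (horizontal), log2 signal, means of replicates 1 and 2, for the 55 probe sets with a PL difference of at least 1 without replicate 3. Nuclear genes (purple) with higher PL signal lie mostly above the dotted line of equal difference, and *QQS* lies below it, at 3.87 in NP and 3.00 in PL. The probe sets were picked by their PL difference, a choice that alone favours larger differences in PL than in NP.

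Among the nuclear genes that were lower in *eif3k*, *AGL87* had the largest difference without replicate 3 of those without overlap. *AGL87*, a MADS-box transcription factor gene, had PL signals of 6.28, 6.39 and 6.37 in *eif3k* and 8.01, 8.17 and 6.87 in WT. The *eif3k* arrays lay close together and below all WT arrays. The difference was -1.34 (SE 0.39), and -1.75 (SE 0.09) without replicate 3, with an adjusted p of 0.392 in limma that was 0.0227 when dim probe sets were left out. In NP its difference was -1.57, and -1.48 without replicate 3. *STOMAGEN*, whose peptide promotes the formation of stomata, had 7.57, 7.46 and 7.82 in *eif3k* and 7.94, 8.07 and 9.42 in WT. Its PL difference was -0.86 (SE 0.46), or -0.49 without replicate 3, and its NP difference was 0.13, and 0.00 without replicate 3. The expansin gene *EXPA8* had 7.87, 7.54 and 5.67 in *eif3k* and 8.16, 8.55 and 8.15 in WT, with *eif3k* replicate 3 the low array, a difference of -1.26, or -0.65 without replicate 3.

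The other nuclear genes among the 10 lowest without overlap, except AT5G51410, differed little outside replicate 3. The thionin gene *THI2.2* had 8.72, 8.82 and 5.45 in *eif3k* and 8.90, 9.06 and 9.87 in WT. Its difference of -1.61 was -0.21 without replicate 3. For AT5G57340, AT3G06070 and AT1G17490 the differences of -1.20, -1.08 and -0.88 were -0.21, -0.28 and -0.25. AT5G51410 differed by -0.86, and still by -0.51 without replicate 3. Without replicate 3, 7 nuclear probe sets were lower by at least 1, and 6 of them were lower by at least 0.5 in NP. Beside *eIF3k* and *AGL87* they included *DIN11*, a dark-induced gene, with 3.48, 3.41 and 3.71 in *eif3k* and 4.63, 4.38 and 3.51 in WT (-1.06 without replicate 3, adjusted p = 0.616 in limma). The others, chosen after their values were seen, were *LEA7*, *NRT1.5*, *NF-YB11* and AT2G06390, a pseudogene in the gene table. *NF-YB11* alone of the 7 was higher in NP, by 0.33.

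mRNAs of the plastid genome were lower in *eif3k*, but not on every array. The plastid encodes subunits of the photosystems and of its own gene expression machinery, and its mRNAs are translated on plastid ribosomes. Of 45 plastid-encoded photosynthesis genes, 40 were lower and 4 higher, and without replicate 3 these were 42 and 1. The list median was -1.13, and -0.60 without replicate 3. The medians by pair were -0.01, -1.07 and -1.87, so replicate 1 showed hardly any difference. On the arrays themselves the list medians were 7.55, 4.90 and 4.69 in *eif3k* and 7.69, 6.89 and 6.94 in WT. The 28 plastid-encoded gene expression genes had 25 lower and 3 higher, with medians by pair of -0.12, -1.09 and -1.71. Without replicate 3 these were 26 and 2, and the list median of -1.04 was -0.58. None of either list was called, and the arrays did not overlap, with *eif3k* lower, in 2 of 45 (4.44%) and 1 of 28 (3.57%), against 1.57% of all probe sets and 1.69% of the brighter ones. Both list medians stayed below -1 after quantile normalization (-1.28 and -1.23) and centring (-1.38 and -1.29).

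**Figure D4:**
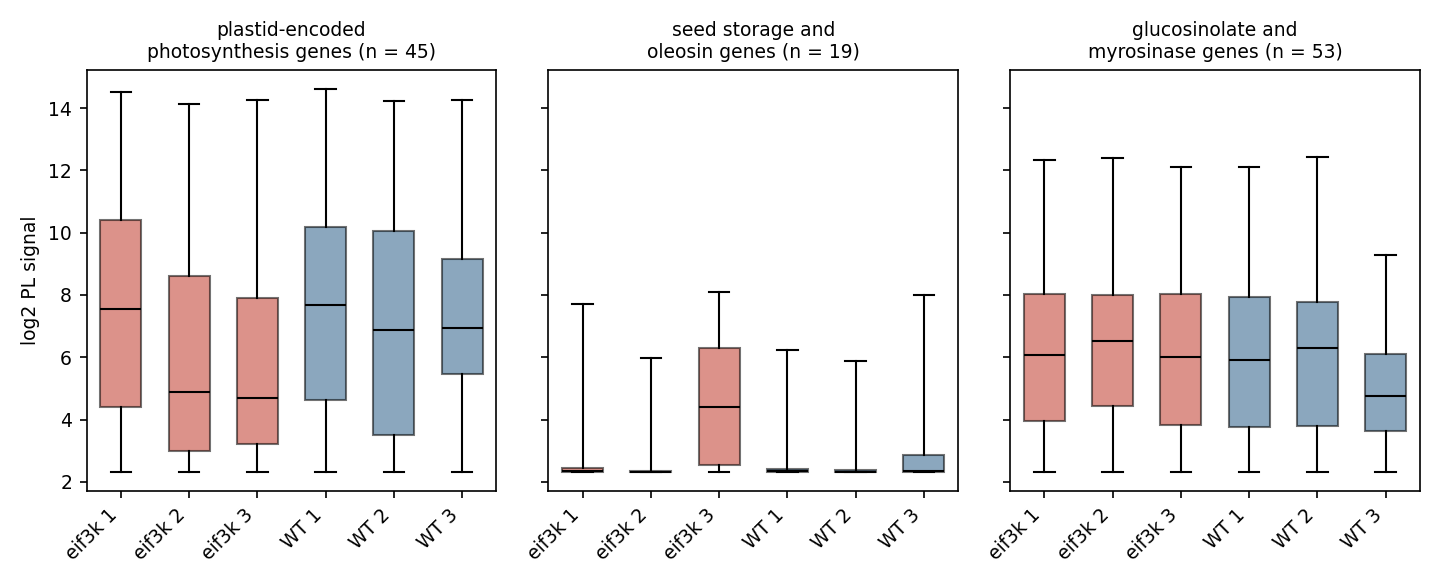
Log2 PL signals of the members of 3 gene lists on the 6 arrays, *eif3k* left of WT: boxes show the middle 50% of members, the line their median and whiskers the lowest and highest member. Plastid-encoded photosynthesis genes are low on *eif3k* replicates 2 and 3, seed genes are high on *eif3k* replicate 3, and glucosinolate genes are low on WT replicate 3.

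*psaC*, the iron-sulphur subunit of photosystem I, had the lowest PL difference among the bright probe sets that did not overlap. Its signals were 7.80, 5.07 and 4.14 in *eif3k* and 8.41, 8.20 and 9.77 in WT, a difference of -3.12 (SE 1.14), or -1.87 (SE 1.26) without replicate 3. In NP these differences were -1.12 and 0.10. *eif3k* replicate 1 lay near the WT arrays and well above *eif3k* replicates 2 and 3. *psbM*, a small subunit of photosystem II, had 12.77, 11.94 and 11.19 in *eif3k* and 12.81, 12.90 and 14.13 in WT, a difference of -1.31, or -0.50 without replicate 3. *psbA* for the D1 protein and *rbcL* for the large subunit of Rubisco were chosen after their values were seen. *psbA* had 10.86, 6.63 and 8.68 in *eif3k* and 11.03, 10.30 and 13.83 in WT. *rbcL* had 8.34, 4.70 and 5.54 in *eif3k* and 8.10, 7.11 and 8.92 in WT, so in replicate 1 *eif3k* lay above WT.

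Without replicate 3, 18 plastid probe sets were lower by at least 1. All 18 reached 1 in the second pair and 1 of them in the first. For 11 of the 18, *eif3k* replicate 1 lay within the range of WT replicates 1 and 2. In NP 14 of the 18, which were picked by PL, were lower by at least 0.5. Over the whole lists of plastid photosynthesis and gene expression genes the NP medians were -0.77 and -0.77, or -0.41 and -0.40 without replicate 3. The medians of the PL difference minus the NP difference were -0.32 and -0.19 with all replicates. The 25S rRNA control probe set, which reads an RNA without a poly(A) tail, was also low on *eif3k* replicate 2 (11.07, 5.77 and 11.11 in *eif3k*, 11.47, 11.39 and 11.95 in WT). It was not low on *eif3k* replicate 3, and its part in the plastid result was not tested. The arrays were made for polyadenylated mRNA, a limit for organelle transcripts. The 17 mitochondrion-encoded genes were all below the brightness limit of 6, with a median difference of -0.12, or 0.00 without replicate 3.

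The nuclear genes of the translation machinery showed no even shift. The 15 probe sets of eIF3 subunits had 10 higher and 5 lower, or 6 and 9 without replicate 3, and medians of 0.15 and -0.04. Apart from *eIF3k*, no eIF3 gene differed by more than 0.29 without replicate 3; *EIF3G1*, a core subunit gene, had 8.48, 8.53 and 8.35 in *eif3k* and 8.69, 8.91 and 7.57 in WT. *TIF3H1*, for the non-core subunit eIF3h, had 7.66, 8.06 and 7.92 in *eif3k* and 7.87, 8.17 and 7.16 in WT. Both groups overlapped in these genes. The 49 other initiation and elongation factors had a median of 0.30, or 0.00 without replicate 3. The largest without overlap was AT4G27130, annotated with translation initiation, at 8.39, 8.33 and 8.93 in *eif3k* and 7.73, 7.90 and 7.26 in WT (0.92, or 0.55 without replicate 3). AT1G77840 and AT5G54940 followed with 0.74 and 0.67, or 0.30 and 0.33 without replicate 3.

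Cytosolic ribosomal protein genes were high on the *eif3k* side with all replicates, by a little, and not without replicate 3. For the 60S subunit 86 of 131 were higher and 42 lower, and without replicate 3 it was 32 higher and 89 lower. The medians were 0.18 and -0.05, and quantile normalization and centring gave 0.01 and -0.07. For the 40S subunit 58 of 86 were higher and 26 lower, and without replicate 3 it was 24 and 56, with medians of 0.10 and -0.05; quantile normalization and centring turned the sign (-0.02 and -0.15). The direction of these families thus depends on the scaling and on replicate 3. A further list took small ribosomal proteins of families that the study names for slightly reduced ribosome loading in a mutant of the gene *RPL24B*. Its 28 probe sets had 19 lower and 8 higher, with a median of -0.11, and 16 and 9 without replicate 3, with a median of -0.01. Among them AT3G10090 had 9.56, 9.44 and 8.92 in *eif3k* and 9.63, 9.79 and 10.38 in WT, and AT4G34555 had 7.29, 7.27 and 7.32 against 7.51, 7.60 and 8.28. For both, all *eif3k* arrays lay below all WT arrays, and the differences were -0.63 and -0.50, or -0.21 and -0.28 without replicate 3. AT4G25740, of the 40S list, differed by -0.17, or -0.11. The 50 nuclear genes of plastid ribosomal proteins had 42 higher and 8 lower, with a median of 0.39, or 0.04 without replicate 3, and *RPL9* was the largest without overlap at 0.42, or 0.23 without replicate 3. Nucleolar ribosome biogenesis factors (28) and aminoacyl-tRNA synthetases (49) had medians of -0.02 and 0.16, or -0.08 and 0.00 without replicate 3.

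Among metabolic genes, the shift of WT replicate 3 was the main pattern. Of 27 enzymes of the Calvin cycle and photorespiration, 26 were higher and 1 lower in *eif3k*, and without replicate 3 it was 14 and 12. The array medians were 11.26, 11.21 and 11.38 in *eif3k* and 11.38, 11.28 and 9.59 in WT. The median difference was 0.63, or 0.01 without replicate 3, and 0.48 and 0.38 under quantile normalization and centring, so rescaling did not remove it. *PRK*, the phosphoribulokinase gene, had 11.83, 11.94 and 12.05 in *eif3k* and 11.65, 11.30 and 10.25 in WT, a difference of 0.87, or 0.41 without replicate 3. Starch enzymes (40) had medians of 0.44 and 0.01, tetrapyrrole enzymes (33) 0.40 and 0.00, and nitrogen assimilation genes (29) 0.36 and 0.00, with all replicates and without replicate 3. *NIA2*, a nitrate reductase gene, had 11.88, 11.78 and 12.31 in *eif3k* and 11.73, 11.59 and 9.52 in WT, a difference of 1.04, or 0.17 without replicate 3.

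*GDH2*, a glutamate dehydrogenase gene, differed from its list. It had 6.86, 6.99 and 7.23 in *eif3k* and 5.72, 6.05 and 5.76 in WT. The arrays did not overlap, WT replicate 3 lay between the other WT arrays, and the differences by pair were 1.14, 0.94 and 1.47. The mean difference was 1.18 (SE 0.14), and 1.04 (SE 0.16) without replicate 3 (adjusted p = 0.724 in limma). In NP these differences were 0.25 and 0.67. The cytosolic glutamine synthetase gene *GSR 1* was higher by 0.80, or 0.45 without replicate 3. The light-harvesting proteins (17) had a median of -0.02, and the nuclear genes of photosystems, cytochrome b6f and ATP synthase (32) one of 0.16; without replicate 3 these were 0.00 and -0.01. In the second list *PETC* (0.49) and *PSAG* (0.40) were higher and *PSAH-1* (-0.30) lower without overlap, by 0.14, 0.26 and -0.10 without replicate 3.

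Tubulin and proteasome genes followed the third pair as well. All 13 tubulin genes were higher in *eif3k*, with a median of 0.85, and without replicate 3 it was 6 higher and 7 lower, with -0.07. Of 47 proteasome subunit genes, 41 were higher and 6 lower, with a median of 0.45 and of -0.01 without replicate 3. Core histones (42) and cyclins with cyclin-dependent kinases (51) had medians of 0.03 and 0.02 that turned below 0 under centring (-0.22 and -0.23), and of 0.01 and 0.00 without replicate 3. *CYCD3;1*, a G1 cyclin gene, had 7.58, 7.79 and 7.63 in *eif3k* and 7.38, 7.53 and 5.47 in WT, a difference of 0.87, or 0.23 without replicate 3. Of 83 Aux/IAA and SAUR genes, 22 were higher and 47 lower, with a median of -0.04, and 17 and 37 without replicate 3, with a median of 0.00. In that list the repressor gene *IAA7* was higher without overlap and in each pair, at 7.73, 7.74 and 7.53 in *eif3k* and 7.46, 7.16 and 6.98 in WT (0.47, or 0.42 without replicate 3). *XTH24*, a xyloglucan-modifying enzyme gene, had 9.00, 8.44 and 9.70 in *eif3k* and 7.92, 7.80 and 6.90 in WT, a difference of 1.51 that was 0.86 without replicate 3. The median of its list of 65 wall-loosening genes was 0.00 in both.

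Regulators with upstream open reading frames are of interest because eIF3 takes part in reinitiation. Of 26 such genes, 16 were higher and 10 lower, and without replicate 3 it was 13 and 13, with medians of 0.13 and 0.00. Centring turned the first to -0.13. In 5 of the 26 (19.2%) the arrays did not overlap, with *eif3k* higher, against 8.95% of the brighter probe sets and 4.56% of all. In the list 11 are that bright. Without replicate 3 the arrays did not overlap in 7 with *eif3k* higher and in 7 with it lower. Over all probe sets these shares were 11.3% and 7.66%. *PAO4*, a polyamine oxidase gene, was the largest, with 6.73, 6.53 and 7.63 in *eif3k* and 6.07, 5.86 and 5.38 in WT. It was higher by 0.66, 0.67 and 2.25 in the 3 pairs. *GBF6*, a bZIP gene with a sucrose-controlled upstream reading frame, had 6.96, 6.77 and 8.33 in *eif3k* and 6.65, 6.75 and 6.70 in WT, so its difference of 0.65, or 0.17 without replicate 3, came mostly from *eif3k* replicate 3. *VTC2*, of ascorbate synthesis, was higher by 0.84, or 0.22 without replicate 3.

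Among the stress lists the chaperones of the endoplasmic reticulum were the largest without overlap in a list of 39 heat shock proteins, whose median was 0.10, or 0.00 without replicate 3. *BIP1* had 8.20, 8.71 and 9.26 in *eif3k* and 7.97, 8.01 and 6.85 in WT (1.11, or 0.47 without replicate 3), on a probe set that may hybridize to more than 1 transcript. *SHD* differed by 0.86, and the cytosolic *HSC70-1* by 0.57, or 0.34 and 0.12 without replicate 3. Cold and drought, hypoxia, touch and wound, and sugar starvation genes had list medians of 0.00, -0.11, 0.01 and 0.06, and 0.00, 0.00, 0.01 and 0.09 without replicate 3. Circadian clock genes (25) had 0.19 and 0.04.

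*eif3k* replicate 3 also differed from every other array in a group of seed mRNAs. Seed storage proteins and oleosins are made in the late embryo, and their mRNAs persist in part after germination. For 19 such genes the array medians were 2.34, 2.33 and 4.42 in *eif3k* and 2.34, 2.33 and 2.34 in WT, and their summed linear signal was 155 to 1031 in *eif3k* and 154 to 373 in WT. The cruciferin gene *CRU3* had 3.25, 2.33 and 7.08 in *eif3k* and 2.33 on all WT arrays, and *CRA1* had 3.65, 2.33 and 8.11 against 2.33, 2.33 and 3.39. The list median was 0.64, and 0.00 without replicate 3. *CRU3* and *CRA1* were chosen after their values were seen.

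The smallest p-values belonged to dim genes with little spread. An adjusted p under 0.05 without regard to size was reached by 3 probe sets (0.0132%), all with differences under 1. *CYP71B23*, a cytochrome P450 gene, had 3.14, 3.14 and 3.20 in *eif3k* and 2.46 on all WT arrays, a difference of 0.70 (SE 0.02, adjusted p = 0.0145 in limma), with 0.03 in NP. AT2G39420 had 3.75, 3.78 and 3.82 in *eif3k* and 3.11, 3.13 and 3.11 in WT (0.67, or 0.65 without replicate 3, adjusted p = 0.0156 with all). AT5G46640, annotated as an AT-hook protein, had 2.49, 2.46 and 2.49 in *eif3k* and 2.98 on all WT arrays (-0.50, or -0.51 without replicate 3, adjusted p = 0.00922 with all). All 3 had signals under 4 on every array. With the replicate number or the array day as a block, 0 probe sets reached this limit (smallest adjusted p = 0.753 and 0.0867 in limma). The count was also 0 after quantile normalization, centring and trended moderation (smallest adjusted p = 0.809, 0.522 and 0.992 in limma). With array weights 4 higher and 1 lower reached it, and with the NP arrays in the fit 3 higher and 0 lower. Without replicate 3, an adjusted p under 0.05 was reached by 6 probe sets (0.0264%), again with *CYP71B23* among them (0.68, adjusted p = 0.0111). The next smallest included AT4G17900, with 5.70, 5.67 and 5.69 in *eif3k* and 5.26, 5.24 and 5.12 in WT (0.48, adjusted p = 0.641 in limma), and the phytosulfokine precursor gene *PSK4*, with 4.56, 4.69 and 4.45 against 3.96, 3.95 and 3.93. Their arrays did not overlap, and their differences were 0.43 and 0.67 without replicate 3, against 0.48 and 0.62 with all.

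**Figure D5:**
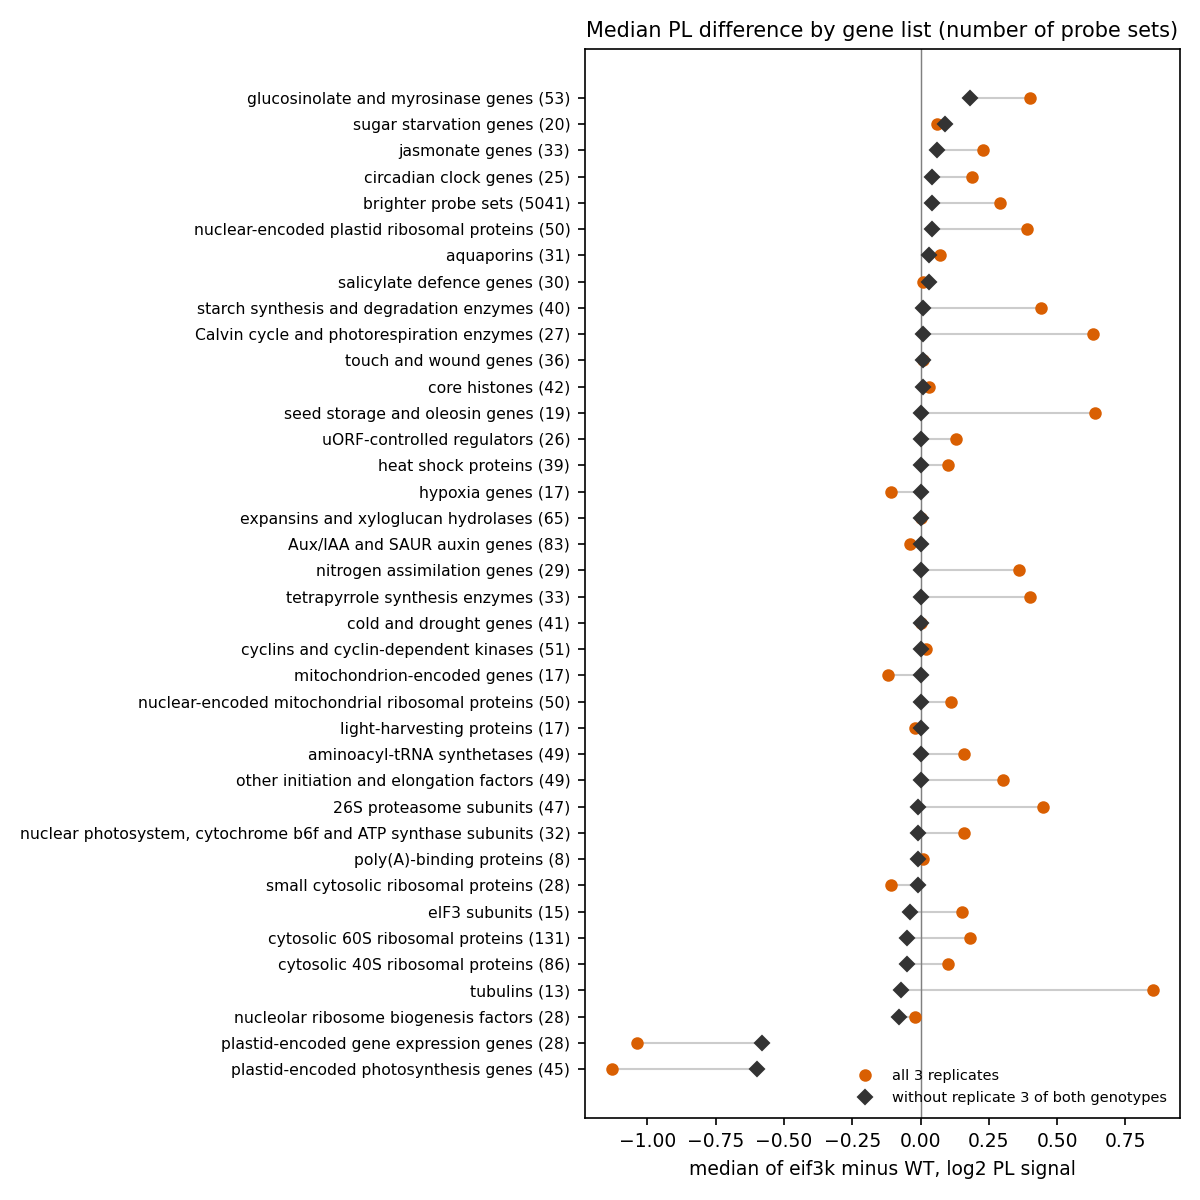
Median difference of *eif3k* minus WT in log2 PL signal for each gene list (number of probe sets in brackets), with all 3 replicates (circles) and without replicate 3 of both genotypes (diamonds). The plastid-encoded lists stay below -0.5 in both, the glucosinolate list has the highest diamond at 0.18, and most other diamonds lie within 0.1 of 0.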

How the data were processed

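The 6 PL arrays and, beside them, the 6 NP arrays were used. The authors deposited 1 normalized log2 signal for each probe set and array. The submitters' notes name GCRMA and the methods RMA, with the version and build not given in the sources used here. Both deposited tables held identical values (largest difference 0.0). A further 6 columns hold the authors' translation states and were not used.

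After 64 controls were left out, 22746 of 22810 probe sets were tested with limma 3.58.1 in R 4.3.3 (lmFit, eBayes, two-sided, Benjamini-Hochberg over all probe sets), without a block. A call needed an adjusted p under 0.05 and a difference of at least 1, the limits that the methods of the study set for translation states. The fit was checked on simulated data. Of 22591 probe sets with 1 nuclear locus, 22091 were found in the TAIR10.1 gene table, and 155 carry organelle or other names. 1061 may hybridize to more than 1 transcript. Deviations from the genotype means correlated between same-numbered replicates at 0.146, 0.268 and 0.215 across probe sets, and these were taken as pairs. The correlation of *eif3k* replicate 2 with WT replicate 1 was also 0.227, and a shared array day would raise these values too. Arrays carry no read depth, and 3 replicates limit the precision.

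Genes were named by rule: *eIF3k* and *QQS*, the 10 highest and 10 lowest differences among bright probe sets (mean of at least 6 in the brighter genotype) without overlap of arrays and with the same sign without replicate 3, the 10 smallest p with all replicates, the 10 smallest p with a difference of at least 1 without replicate 3, and up to 3 bright members per list without overlap. All other names were chosen after their values were seen. The members, lists and tests were chosen with earlier results of these data known. Lists are described by counts and medians, with no set test. Alternatives were the replicate number or array day as a block, array weights, fits with the NP arrays, quantile normalization, centring, filters on dim and multi-transcript probe sets, trended moderation, the other deposited table, no minimum difference, and leaving out replicates. Python 3.11.15, pandas 2.3.3, numpy 2.4.6 and matplotlib 3.10.9 were used.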

Additional observations from a re-analysis of the deposited data

How the results depend on the processing

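The count of called probe sets in PL was 0 and stayed 0 in all alternatives but 4. Without a minimum difference 3 were called. Leaving out single replicates, alone or in both genotypes, gave 0 to 1: without *eif3k* replicate 1, 2 or 3 a single and each time different gene was called, *GH9B13* (1.17), *LURP1* (1.27) and AT5G10760 (1.41). Without replicate 3 of both genotypes the count was 0. It was 6 with no minimum difference, 2 with dim probe sets left out (*eIF3k* and *AGL87*) and 1 (AT5G10760, adjusted p = 0.00343 in limma) when the 8 PL and NP arrays of replicates 1 and 2 shared a spread. When the block for the pairing by replicate number was fitted, it was 0 in PL, 0 without replicate 3 and 0 for the difference between PL and NP. The block thus changed no call at the limit of 1, where the fits without it had none either. With no minimum difference, the block left 0 of the 3 in PL and 0 of the 6 without replicate 3. The smallest adjusted p was then 0.753 and 0.489 in limma. The count of probe sets with a PL difference of at least 1 depended on WT replicate 3. It was 441, of which 82.3% were higher in *eif3k*, and 55 to 1682 when replicates were left out, the highest without replicate 1 of both genotypes and 139 (51.1% higher) without WT replicate 3. Without WT replicate 1 or 2 alone it was 1460 and 1438, and without replicate 2 of both genotypes 1445. With array weights, which gave WT replicate 3 the lowest weight, it was 59 (45.8% higher), and with dim probe sets left out 277. The split was 58.9% higher after quantile normalization (426) and 32.7% after centring (394). Without replicate 3 the count of 55 was 26 with dim probe sets left out, which tests fewer genes. Of 1684 repeats for single genes, 1676 kept their direction and side of the threshold and 7 newly passed it. Since no gene was called in the main fits, keeping the side means staying uncalled. Blocks, moderation and the other deposited table leave a difference as it was, so their repeats keep the direction in any case. Size was not counted: the difference of AT1G19660 ran from 0.50 to 3.19. For AT1G20880 the difference of -0.08 was reversed to 0.06 after quantile normalization; the cause was not tested. Under these alternatives the *QQS* difference was 2.07 to 3.12 (adjusted p = 0.136 to 0.992 in limma).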
